A study of Mus musculus with 43 samples.

Results

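The collagen genes of the mouse were followed in cultures of colon epithelium and of colon fibroblasts. A gene was taken as a collagen gene when its symbol had the form Col, a number, the letter a and a number, which gave 44 of the 52636 rows in each of the 2 expression tables. These 44 genes encode the chains of 27 collagen types, grouped here into 9 structural classes. The classes were fibril-forming collagens (11 genes), basement membrane network collagens (6, all of type IV), beaded filament collagens (6, all of type VI), FACIT collagens (9, fibril-associated with interrupted triple helices), transmembrane collagens (4), hexagonal network collagens (3), multiplexins (2), the anchoring fibril collagen (1) and other collagens (2).

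Collagens are secreted proteins in which chains wind into a triple helix. Fibroblasts are the main source of the fibrillar types I, III and V in the stroma of the gut, while type IV collagen forms the sheet-like network of the basement membrane on which the epithelium rests. The chains are hydroxylated and glycosylated in the endoplasmic reticulum, exported, trimmed at their ends in the case of the fibrillar types, and cross-linked outside the cell. Type IV molecules are assembled from alpha1 and alpha2 chains in nearly all basement membranes, and from alpha3, alpha4 and alpha5 or from alpha5 and alpha6 chains in specialized ones.

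Bulk RNA sequencing was done on 24 libraries of colon organoids and 19 libraries of colon fibroblasts. Organoids came from 2-month-old Vil-cre/ERT2 mice treated with tamoxifen in vivo. Apc, the tumor suppressor that restrains Wnt signaling, was wild-type (wt/wt) in the colonoid lines M41, M40 and M1 and deleted (flox/flox, recombined) in the tumoroid lines F11, M3 and M14. All 6 lines carried the Cre, which the villin promoter drives in intestinal epithelium, each came from 1 mouse, and F11 was the only line from a female. They were grown in Matrigel for 6 days with vehicle (DMSO, Ve), regorafenib at 4 µM (R4) or 8 µM (R8), or 5-FU at 1 µM, with 3 libraries per group. Matrigel is itself a basement membrane extract that contains type IV collagen protein, which RNA counts do not see. The fibroblast lines M3, M3(2), M1(2) and M11 came from what remained of wild-type C57BL/6 colon after the crypts had been taken out, and the mice in the table of lines were 2 months old, in which M1(2) and M11 are not listed. Fibroblasts were cultured for 7 days with vehicle (Ve), regorafenib at 4 µM (R4) or 10 µM (R10), autogramin-2 at 1 µM (A1), or 4 µM regorafenib with 1 µM autogramin-2 (R4A1). Each fibroblast group held 4 libraries except R10, which had no M11 library and held 3. Regorafenib is a multi-kinase inhibitor used in colorectal cancer, 5-FU is an antimetabolite that interferes with thymidylate synthesis, and autogramin-2 inhibits the cholesterol transfer protein GRAMD1A and thereby autophagy.

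Values are given in CP20M, the number of reads counted on a gene when a library is scaled to 20000000 counted reads, so that 20 CP20M is 1 CPM. The organoid libraries held between 512597 and 22370026 reads counted on genes, with a median of 15697921, and the fibroblast libraries between 7949969 and 12825913, with a median of 9039207. One library stood apart, colonoid line M41 at R4 with 512597 reads. There 1 read is 39.0 CP20M, and a value of 117 CP20M or less rests on 3 reads at most. Most calls and log2 fold changes that rest on it are given with and without it below. For cell type markers the log2 fold changes are given only with it. The 2 tables were normalized separately and no test was made between them.

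The labelled cell types were checked against marker genes. In organoids the 10 epithelial markers summed to between 114284 and 359584 CP20M (the highest in the shallow library), and the 10 fibroblast markers to between 5 and 140. Lum, which encodes a stromal proteoglycan, was listed at 0 in all 24 organoid libraries, and Pdgfrb, the most abundant gene of the fibroblast list there, averaged 12.8 CP20M. In fibroblast cultures the fibroblast markers summed to between 14668 and 29523 CP20M and the epithelial markers to between 221 and 1644. Those cultures also held transcripts on the marker lists of other stromal cells. The sums were 5136 to 43507 CP20M for smooth muscle and 792 to 20810 for endothelium. They were 747 to 16342 for enteric glia and 503 to 5561 for macrophages. Which cells these transcripts came from was not tested. Apc was counted over the whole gene, so its level does not show the loss of the floxed exon and checks no genotype label. Vehicle libraries held 1990 to 4189 CP20M of Apc in colonoids and 4932 to 5211 in tumoroids.

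The 6 type IV genes, on which the organoid results turn, lie in the genome as 3 head-to-head pairs. In the mouse genome GRCm38, Col4a1 lies on the minus strand at chr8:11198423-11312826 and Col4a2 on the plus strand at chr8:11312805-11449287. Col4a4 lies on the minus strand at chr1:82448423-82586849 and Col4a3 on the plus strand at chr1:82586921-82722059. Col4a6 lies on the minus strand at chrX:141165403-141474076 and Col4a5 on the plus strand at chrX:141475385-141689234. The first exons of Col4a1 and Col4a2 overlap by 22 bases, 71 bases separate the start sites of Col4a4 and Col4a3, and the start sites of Col4a6 and Col4a5 lie 1309 bases apart. The stretches from which each pair is transcribed are shown because the members of a pair share them or lie beside them. The sequences are from RefSeq (GRCm38.p6), are read 5′ to 3′ on the strand given, and have in capitals any match on either strand to GGGCGG (GC box), CCAAT (bound by NF-Y), TGANTCA (AP-1), GGAATG (TEAD), CAGGTG (E-box) or TATAAA (a core promoter element).
Col4a1-Col4a2, chr8:11312805-11312826, plus strand, shared by both first exons: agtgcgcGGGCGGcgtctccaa
Col4a4-Col4a3, chr1:82586850-82586920, plus strand, between the start sites: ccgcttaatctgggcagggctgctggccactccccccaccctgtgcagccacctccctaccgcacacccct
Col4a5, chrX:141475169-141475384, plus strand, before the start site: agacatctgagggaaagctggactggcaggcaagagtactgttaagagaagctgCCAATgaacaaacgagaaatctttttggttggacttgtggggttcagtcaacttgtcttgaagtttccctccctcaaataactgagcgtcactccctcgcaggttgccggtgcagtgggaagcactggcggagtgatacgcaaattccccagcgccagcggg
Col4a6, chrX:141474077-141474326, minus strand, before the start site: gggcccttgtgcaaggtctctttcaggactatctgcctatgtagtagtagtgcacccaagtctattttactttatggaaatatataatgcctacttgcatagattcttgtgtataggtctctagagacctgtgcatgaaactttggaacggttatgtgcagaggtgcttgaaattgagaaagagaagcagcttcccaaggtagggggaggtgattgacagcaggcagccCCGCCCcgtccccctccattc

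Of the 44 collagen genes, 35 had at least 1 promoter in the RefSeq table, 38 promoters of 300 bases in all. GGGCGG, the letters of the GC box bound by Sp1-type factors, was found in 23 of the 38 (60.5%), against 35.7% of all 32851 promoters. CCAAT was found in 13 (34.2%) against 37.4%, and TATAAA in 5 (13.2%) against 13.6%. TGANTCA, the letters of the AP-1 site, was found in 1 (2.63%) against 7.81%, GGAATG, the letters bound by TEAD factors, in 5 (13.2%) against 14.7%, and CAGGTG, an E-box, in 5 (13.2%) against 20.2%. These are matches to letters on either strand and not binding sites, and no test was made of the shares.

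Organoids expressed few collagen genes, and type IV led in both genotypes. Levels of different genes are compared per kilobase of exon. In vehicle colonoids Col4a1 had 522 ± 128 CP20M per kilobase (SD, n = 3), Col4a2 441 ± 99.1, Col18a1 (the multiplexin of basement membranes, precursor of endostatin) 120 ± 73.1 and Col4a5 21.04. In vehicle tumoroids the same genes had 610 ± 142, 568 ± 125, 203 and 28.4. Type IV made up 85.4% of the per-kilobase sum of all 44 genes in colonoids and 81.5% in tumoroids, and the multiplexins 10.0% and 14.4%. Col1a2, which encodes the alpha2 chain of type I, was listed at 0 in 20 of the 24 organoid libraries and reached 4 CP20M. The type VI chains Col6a1, Col6a2 and Col6a3 were listed at 0 in 20, 21 and 19 of the 24 and reached 10, 40 and 118 CP20M. The last 2 values are 1 and 3 reads in the shallow library. Col1a1 had a median of 14 CP20M over the 24 libraries, was listed at 0 in 1 of them and reached 118, which is 3 reads of the shallow library, and 44 in the others. In all, 33 of the 44 genes never reached 200 CP20M in any organoid library, and 12 never reached 20.

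In fibroblasts the fibrillar and the type IV chains were both abundant. Col1a1 had the highest level per kilobase in vehicle, 11780 ± 2367 (SD, n = 4), followed by Col4a1 at 8172 ± 1148, Col4a2 at 5489 ± 622, Col1a2 at 3525 ± 644, Col5a2 at 3347 and Col5a1 at 3110. The order below Col4a1 depends on the gene model, since with the longest transcript in place of the union of exons Col1a2 had 8190 per kilobase and ranked 3, above Col4a2 at 5633. Fibril-forming collagens made up 52.8% of the per-kilobase sum, type IV 32.8%, FACIT collagens 4.51%, multiplexins 3.73%, hexagonal network collagens 3.25% and type VI 2.67%. In contrast to the organoids, 25 of the 44 genes passed the filter for testing and 19 stayed under 200 CP20M in all 19 libraries. All collagen genes together took 1.79% of the counted reads in vehicle fibroblasts, against 0.0409% in vehicle colonoids and 0.052% in vehicle tumoroids. The order of levels within each culture is set out in the plot of vehicle levels by class.

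**Figure D1:**
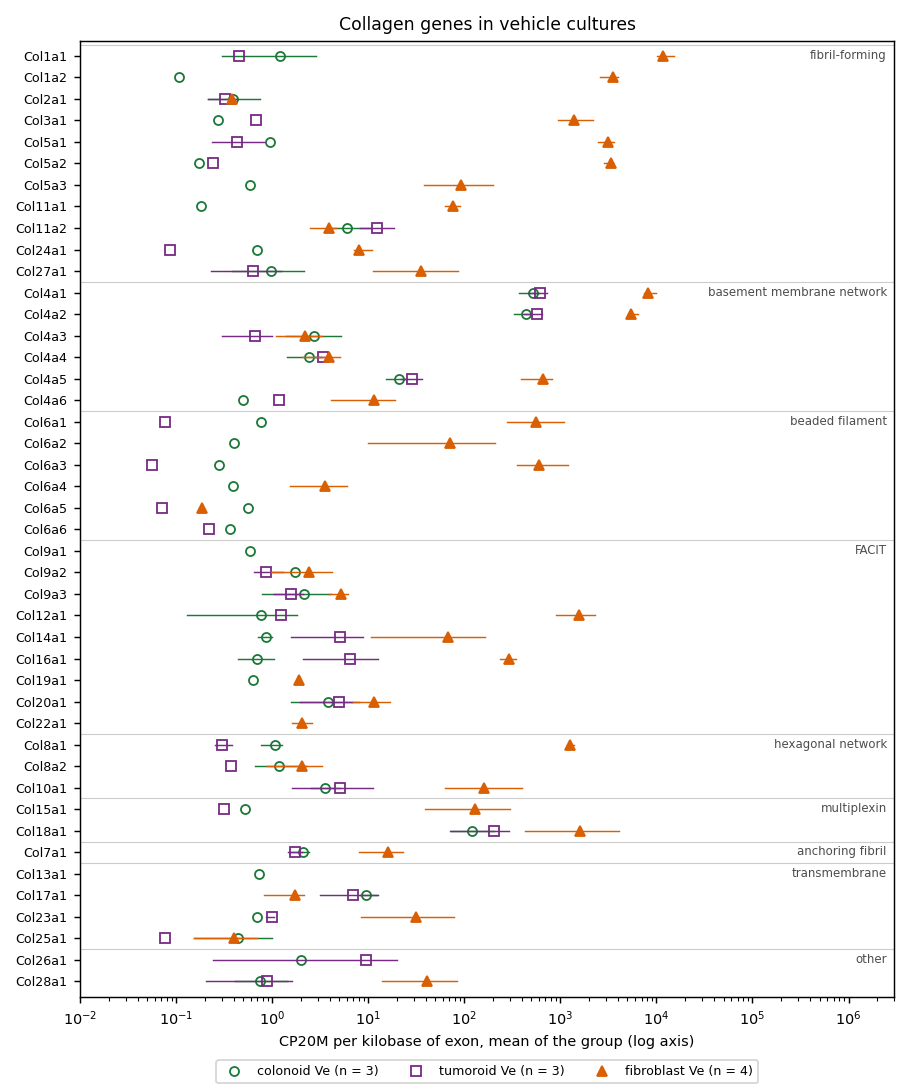
Level of each of the 44 collagen genes in vehicle cultures, in CP20M per kilobase of exon on a log axis, grouped by class. Symbols are means of colonoids (circles, n = 3), tumoroids (squares, n = 3) and fibroblasts (triangles, n = 4), lines run from the lowest to the highest library and are left out where the lowest is 0, and means of 0 are not drawn; in organoids Col4a1, Col4a2 and Col18a1 stand above all others.

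The first question was which collagen genes responded to regorafenib in colon epithelium, for which the mean of R4 and R8 was set against vehicle over both genotypes. A gene was called when its false discovery rate was under 0.05 and it differed at least 1.5-fold in either direction. By this rule 16.21% of the 11320 genes tested were called. Of the 44 collagen genes, 9 passed the filter of 200 CP20M in 2 libraries, and 8 of these rose and none fell. The 8 were the type IV genes Col4a1 to Col4a5, Col18a1, Col7a1 and Col5a2, and Col11a2 was the member tested that did not pass. Only Col4a1, Col4a2 and Col18a1 passed the filter in the vehicle libraries alone, so the other 6 were tested because they were high in treated libraries, and their count is not evidence on the family. With a fit to all genes above 0 in at least 2 libraries, 43 collagen genes were tested, 6.79% of 31036 genes were called, and 9 collagen genes were, the same 8 and Col20a1. As a description, the median log2 fold change was 1.51 over the 9 members and −0.10 over all genes tested. The same limit holds for the median over the 9, since 6 of them were tested through treated libraries. In bulk cultures, fewer cells of a type and less RNA per cell cannot be told apart.

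Col4a1 and Col4a2, the chains of the ubiquitous type IV network, had the highest levels. Col4a1 was at 2796, 4439 and 4458 CP20M in vehicle colonoids (lines M41, M40 and M1), at 15724, 8887 and 11027 at R4 and at 22799, 14579 and 9306 at R8. In tumoroids (lines F11, M3 and M14) Col4a1 was at 5490, 3405 and 4753 in vehicle, at 11432, 9245 and 11374 at R4 and at 6753, 7844 and 9614 at R8. Every treated library was above every vehicle library, with the smallest distance in F11 at R8. Over all genes tested, 4.63% had treated and vehicle groups without overlap, and 3 of the 9 members did, Col4a1, Col4a2 and Col7a1. Of these, Col7a1 was tested only through treated libraries. Col4a1 rose by 1.40 ± 0.19 on the log2 scale (± SE throughout, adjusted p = 9.7e-05).

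Col4a2 was at 2164, 3323 and 3275 CP20M in vehicle colonoids, at 9521, 5946 and 6710 at R4 and at 16875, 10377 and 6186 at R8. In tumoroids it was at 4262, 2803 and 4204 in vehicle, at 8004, 7412 and 7567 at R4 and at 4612, 6269 and 7095 at R8. The treated and vehicle groups did not overlap, and the lines kept the order seen for Col4a1 in colonoids at R8, with M41 highest and M1 lowest. Col4a2 rose by 1.22 ± 0.19 (adjusted p = 0.000326). The 22 bases shared by both first exons are a small part of either gene and could move few reads between them.

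Col4a3 and Col4a4 encode chains of the specialized type IV network known from the glomerulus, cochlea and lung, in which they are joined by the product of Col4a5. Col4a3 was at 52, 14 and 16 CP20M in vehicle colonoids, at 820, 108 and 306 at R4 and at 1227, 629 and 316 at R8. In tumoroids it was at 7, 3 and 10 in vehicle, at 34, 115 and 210 at R4 and at 27, 142 and 270 at R8. The lowest treated values, those of F11, lay under the vehicle value of M41, but each of the 6 lines had more Col4a3 at both doses than in its own vehicle. Col4a3 rose by 2.80 ± 0.46 (adjusted p = 0.000514). Its exons overlap those of C430014B12Rik on the opposite strand by 563 bases, and whether reads were counted by strand is not given in the sources used here.

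Col4a4, which faces Col4a3 across the 71 bases shown above, was at 34, 15 and 28 CP20M in vehicle colonoids, at 664, 135 and 263 at R4 and at 973, 602 and 225 at R8. In tumoroids it was at 41, 30 and 36 in vehicle, at 51, 130 and 255 at R4 and at 32, 164 and 365 at R8. In F11 at R8 it lay under that line's own vehicle, while the other 5 lines were higher at both doses. Col4a4 rose by 2.30 ± 0.44 (adjusted p = 0.00143).

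Col4a5 was at 152, 102 and 170 CP20M in vehicle colonoids, at 742, 173 and 426 at R4 and at 1616, 729 and 865 at R8. In tumoroids it was at 148, 182 and 242 in vehicle, at 468, 529 and 297 at R4 and at 422, 769 and 460 at R8. The lowest treated library, M40 at R4, lay within the range of vehicle, and all others lay above it. Col4a5 rose by 1.64 ± 0.26 (adjusted p = 0.000423), whereas its X-linked neighbor Col4a6 did not pass the filter for testing.

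Outside type IV, 3 genes of other classes rose. Col18a1 was at 507 to 1430 CP20M in vehicle colonoids and 1332 to 3804 with regorafenib, and at 502 to 2070 in vehicle tumoroids and 1158 to 2935 with regorafenib. These ranges overlapped in both genotypes, and the log2 fold change was 1.30 ± 0.31 (adjusted p = 0.00641). Col7a1, the anchoring fibril collagen that ties the basement membrane to the stroma beneath, was at 15 to 25 CP20M in the 6 vehicle libraries and at 28 to 271 in the 12 treated ones. The groups did not overlap, and the log2 fold change was 1.51 ± 0.30 (adjusted p = 0.00193). Col7a1 reached 200 CP20M only in M41 and M40 at R8, so that without either line it was not tested.

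Col5a2, which encodes a chain of the type V collagen that regulates fibril diameter, was near the limit of detection. It was at 0, 0 and 5 CP20M in vehicle colonoids, at 40, 4 and 74 at R4 and at 38, 31 and 353 at R8, and the 40 is 1 read of the shallow library. In tumoroids it was at 0, 0 and 7 in vehicle, at 23, 17 and 41 at R4 and at 69, 90 and 310 at R8. Of the 6 vehicle libraries 4 were listed at 0, and the 5 CP20M of M1 is 3 reads rounded up. The fitted log2 fold change of 1.83 ± 0.46 (adjusted p = 0.0091) therefore depends on the pseudocount of 20 and became 4.03 with a pseudocount of 2. It reached 200 CP20M only in M1 and M14 at R8, so that without either line it was not tested. The highest value in each genotype was in line M1 or M14 at R8, while Col1a1, the main chain of fibrils to which type V belongs, stayed at 44 or less outside the shallow library.

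Without the shallow library the same 8 members were called over both genotypes. Their log2 fold changes were then 2.63 for Col4a3, 2.16 for Col4a4, 1.80 for Col5a2, 1.52 for Col4a5, 1.47 for Col7a1, 1.35 for Col4a1, 1.29 for Col18a1 and 1.17 for Col4a2, each lower than with it.

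**Figure D2:**
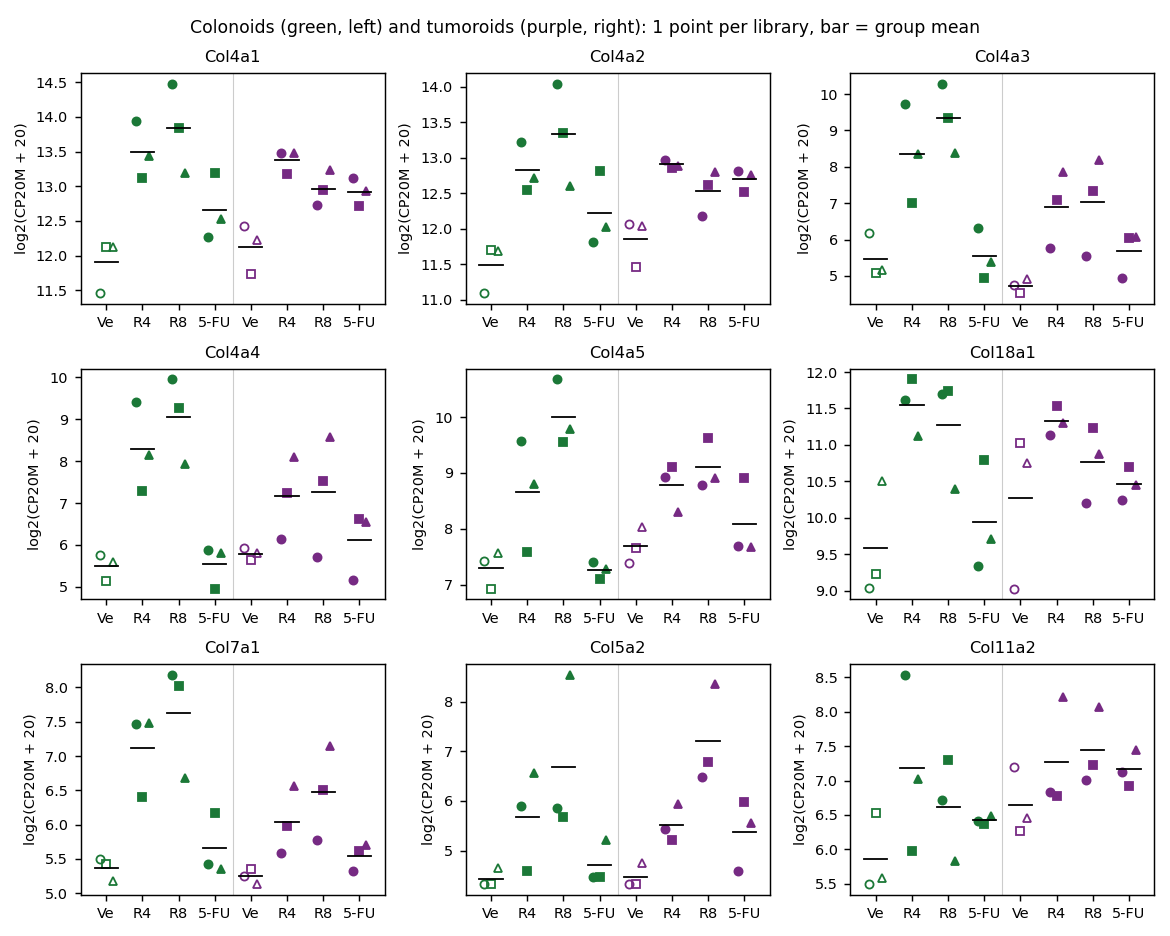
The 9 tested collagen genes in the 24 organoid libraries, as log2(CP20M + 20) by genotype and treatment, with 1 point per library (circles M41 and F11, squares M40 and M3, triangles M1 and M14, open in vehicle) and a bar at each group mean. For Col4a1, Col4a2 and Col7a1 all 12 regorafenib libraries lie above all 6 vehicle libraries, while Col18a1 and Col11a2 overlap.

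Within colonoids 13.25% of the genes tested were called, and 7 of the 9 members tested, with none lower. The log2 fold changes were 3.37 ± 0.66 for Col4a3 (adjusted p = 0.00349), 3.18 ± 0.62 for Col4a4 (0.00353), 2.02 ± 0.37 for Col4a5 (0.00246), 2.01 ± 0.43 for Col7a1 (0.0058), 1.82 ± 0.44 for Col18a1 (0.0123), 1.76 ± 0.27 for Col4a1 (0.000745) and 1.58 ± 0.27 for Col4a2 (0.00143). Without the shallow library the same 7 were called, with 3.03 for Col4a3, 2.89 for Col4a4, 1.92 for Col7a1, 1.81 for Col18a1, 1.79 for Col4a5, 1.65 for Col4a1 and 1.48 for Col4a2. For 6 members, Col7a1 and Col4a1 to Col4a5, the 6 treated and 3 vehicle colonoid libraries did not overlap, which held for 17.6% of all genes tested. Only Col4a1, Col4a2 and Col18a1 passed the filter in vehicle alone, so neither this count nor the count of calls is evidence on the family. Without line M41 or line M40 there were 5 calls. Col18a1 was then no longer called (1.43, adjusted p = 0.108, and 1.44, adjusted p = 0.141), while Col7a1 fell under the filter and was not tested. With the line as a block Col5a2 was called as well (1.76, adjusted p = 0.0204, against 0.0843 without the block). It was also called with edgeR.

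Within tumoroids 6.78% of the genes tested were called, and 2 of the 9 members tested. Col4a3 rose by 2.23 ± 0.66 (adjusted p = 0.0497) and Col4a1 by 1.04 ± 0.27 (adjusted p = 0.0262). Blocked by line, which uses that each line was cultured in every group, the fit called 9.67% of the genes and 4 members, adding Col5a2 (1.90, adjusted p = 0.0218) and Col4a5 (1.25, adjusted p = 0.0139). The treated and vehicle libraries did not overlap for 6 members, Col7a1, Col5a2, Col4a1, Col4a2, Col4a3 and Col4a5, and for 22.1% of all genes tested. Of these members only Col4a1 and Col4a2 passed the filter in vehicle alone, so their count is not evidence on the family. Without any 1 of the lines F11, M3 or M14 no member was called, and leaving out the shallow colonoid library, which enters through the shared estimate of spread, gave 4.

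The response was not shown to differ between genotypes. In the interaction 0.00883% of the genes were called and no member was, also with edgeR, and no member had an unadjusted p under 0.05. The estimates were lower in tumoroids for 8 of the 9 members, as with Col4a1 (−0.72 ± 0.38) and Col4a4 (−1.76 ± 0.88), both with an adjusted p of 1. Without the shallow library they were −0.61 ± 0.36 and −1.47 ± 0.84, and no member was called. Neither was a baseline difference called. Between vehicle tumoroids and vehicle colonoids 1.39% of the genes were called and none of the 9 members, by limma or edgeR, with none at an unadjusted p under 0.05. Groups without overlap were found for 26.8% of all genes tested there and for 1 of the 9 members, Col4a3, at 3 to 10 CP20M in tumoroids and 14 to 52 in colonoids, with a log2 fold change of −0.75 (adjusted p = 0.72).

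Between R8 and R4, 0.451% of the genes were called and no member was, by limma or by edgeR. At an unadjusted p under 0.05 there were 2, Col4a5 with a log2 fold change of 0.84 (adjusted p = 0.218) and Col5a2 with 1.35 (adjusted p = 0.253). Col4a1 and Col4a2 differed between the doses by −0.04 ± 0.22 and 0.06 ± 0.22 over both genotypes. The estimates were 0.34 ± 0.31 and 0.50 ± 0.31 in colonoids and −0.41 ± 0.31 and −0.38 ± 0.31 in tumoroids, none of them called. Without the shallow library the colonoid estimates were 0.56 ± 0.32 and 0.70 ± 0.33, and no member was called between the doses. Col4a5 was then at 1.07 over both genotypes (adjusted p = 0.0604). These values by genotype were added after the data were seen, and whether they differ was not tested.

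With 5-FU 2.35% of 11562 genes were called and no member was by limma or edgeR, with 2 members at an unadjusted p under 0.05. These were Col4a1 (0.78 ± 0.21, adjusted p = 0.0545) and Col4a2 (0.78 ± 0.22, adjusted p = 0.0573). Col4a1 was at 4904, 9372 and 5887 CP20M in colonoids with 5-FU (lines M41, M40 and M1) and at 8863, 6698 and 7784 in tumoroids (F11, M3 and M14). Col4a2 was at 3578, 7160 and 4167 and at 7150, 5867 and 6924. Every line had more of both genes with 5-FU than in its own vehicle, while the groups overlapped. Blocked by line, the fit called 5.05% of the genes, and both genes rose (adjusted p = 0.0387 and 0.0419). The comparisons with regorafenib and with 5-FU share the vehicle libraries, and Col4a3 and Col4a4, with the largest values for regorafenib, had 0.52 ± 0.51 and 0.19 ± 0.49 with 5-FU.

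**Figure D3:**
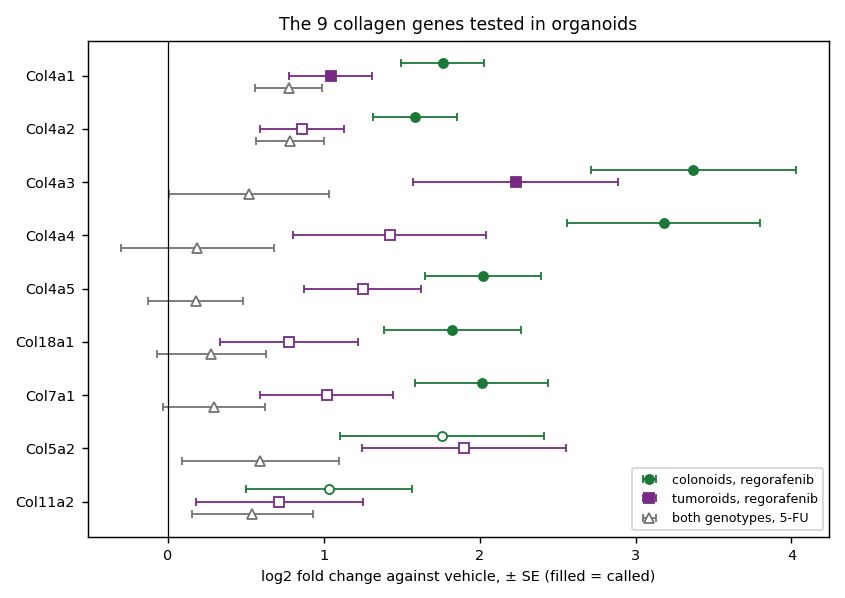
Log2 fold change against vehicle, with its standard error, of the 9 tested collagen genes for regorafenib in colonoids, regorafenib in tumoroids and 5-FU in both, with filled symbols where the gene was called. Every point is above 0, and with 5-FU no symbol is filled.

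Genes that make, export and cross-link collagen were followed beside it, against 7.58% of all genes called higher and 8.63% called lower. Of 18 modifying enzymes and chaperones 11 were tested, and 5 rose with regorafenib over both genotypes while none fell. They were Plod2, the lysyl hydroxylase of telopeptides (1.81), the prolyl 4-hydroxylase subunits P4ha2 (1.19) and P4ha1 (0.66), P3h4 (0.99) of the lysyl hydroxylation complex, and the galactosyltransferase Colgalt1 (0.64). Plod2 and P3h4 stayed under 200 CP20M in all vehicle libraries and were tested only through treated ones, and the same holds for Pxdn and Cd68 below. Pxdn, the peroxidase that forms sulfilimine bonds between type IV molecules, was at 22 to 94 CP20M in vehicle and 118 to 1491 with regorafenib, and rose by 3.38 ± 0.32 on the log2 scale (adjusted p = 8.65e-06). The 118 is 3 reads of the shallow library. Of 7 cross-linking genes 4 were tested and 2 rose, Pxdn and the lysyl oxidase Loxl4 (0.91). Without the shallow library all 7 stayed called, with 3.57 for Pxdn, 1.84 for Plod2, 1.196 for P4ha2, 0.96 for Loxl4, 0.94 for P3h4, 0.72 for Colgalt1 and 0.69 for P4ha1.

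Bmp1, the proteinase that removes the C-propeptide of fibrillar procollagens, was at 150 to 307 CP20M in vehicle and at 615 to 3563 with regorafenib, and rose by 2.46 ± 0.27 (adjusted p = 2.16e-05) as the one gene tested of 8 for propeptide processing. None of 3 export genes and none of 2 turnover genes tested was called. Of 3 receptor genes tested 1 rose, Itgb1 (0.62), the shared beta chain of the collagen-binding integrins. In tumoroids alone, where 6.78% of all genes were called, Plod2 (1.72), Bmp1 (2.04) and Pxdn (3.79) rose, and with 5-FU (2.35% called) Plod2 rose (1.23). Without the shallow library Bmp1 (2.43) and Itgb1 (0.74) stayed called over both genotypes and the export gene Sec24d was added (0.73, adjusted p = 0.00689), while Pxdn (1.21, adjusted p = 0.0263) and Bmp1 (0.99, adjusted p = 0.0395) were added with 5-FU.

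Markers of cell types were read in the same fit. Among 10 epithelial markers 3 fell with regorafenib, beside the 8.63% of all genes that did, Cdx2 (−1.89), Lgals4 (−1.79) and Cldn7 (−0.65), and the sum of the list moved differently by line and dose. In colonoids it was 230915 to 299874 CP20M in vehicle, 359584 in the shallow library and 261715 and 183960 in the others at R4, and 175618 to 211971 at R8. In tumoroids it was 141493 to 174012 in vehicle, 142584 to 177142 at R4 and 114284 to 168241 at R8, and in F11 it was higher at both doses than in vehicle. No fibroblast, smooth muscle, endothelial or enteric glia marker reached 200 CP20M in any organoid library, and their sums stayed at or under 140, 120, 119 and 36 CP20M. The 120 for smooth muscle is the shallow library, and that sum was 22 or less in the others. The 8 macrophage markers summed to between 790 and 3660 CP20M, with Cd14 the most abundant, and 1 of the 3 tested rose, the lysosomal protein gene Cd68 (1.60, adjusted p = 0.0112). Ptprc, Adgre1, Lyz2 and Tyrobp were at or near 0. Csf1r, another macrophage marker of the list, was at 352 to 625 CP20M in the 24 libraries and was not called. Cdx2, Lgals4 and Cldn7 thus fell where the called collagen genes rose, and Cd68 rose as they did. These markers were also called without the shallow library, and their part in the result was not tested.

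In fibroblasts the question was whether the stromal source of collagen responded to regorafenib, alone or with the autophagy inhibitor. The collagen genes together took 1.79 ± 0.20% of the counted reads in Ve (SD, n = 4), 1.87 ± 0.36% at R4 and 1.99 ± 0.14% at R10 (n = 3). At R10 the share was higher than vehicle in each line, at 2.15% against 1.87% in M3, 1.93% against 1.65% in M3(2) and 1.90% against 1.60% in M1(2). At R4 it was higher in M3 (2.38%) and M3(2) (1.69%) and lower in M1(2) (1.58%) and M11 (1.84% against 2.02%). These shares were not tested. Single members moved in both directions. At R10 FACIT collagens made up 10.5% of the per-kilobase sum (8.94 to 11.5) against 4.51% in vehicle (2.78 to 5.77), and type VI 0.992% (0.593 to 1.52) against 2.67% (1.61 to 4.89). Line M11, which has no R10 library, had the lowest FACIT share (2.78%) and the highest type VI share (4.89%) in vehicle. Over the other 3 lines the FACIT share was 4.33% to 5.77% in vehicle and higher in each at R10, and the type VI share was 1.61% to 2.59% in vehicle and lower in each at R10.

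At R10 7.33% of 11032 genes were called, and 3 of the 25 members tested, 1 higher and 2 lower. The median log2 fold change was 0.12 over the 25 members and −0.04 over all genes tested. Col12a1 (chr9:79598991-79718831), a FACIT collagen that sits on type I fibrils in tissues under tension, was at 35294, 27330, 19593 and 13739 CP20M in vehicle (M3, M3(2), M1(2) and M11). It was at 61465, 47297, 31242 and 20688 at R4, and at 81490, 70866 and 54228 at R10. The R10 libraries lay above all vehicle libraries, every line had more at R4 than in vehicle, and the 3 lines with an R10 library had more at R10 than at R4. Col12a1 rose by 1.59 ± 0.43 at R10 (adjusted p = 0.0213).

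Col3a1 (chr1:45311538-45349706), which encodes the homotrimeric fibrillar collagen of distensible tissue, was at 10426, 9282, 13352 and 21620 CP20M in vehicle. It was at 9964, 5536, 8459 and 10933 at R4 and at 4467, 3477 and 7022 at R10. All R10 libraries lay under all vehicle libraries. Col3a1 fell by 1.43 on the log2 scale at R10 (SE 0.37, adjusted p = 0.015).

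Col11a1 (chr3:114030540-114220718), a minor fibrillar chain that nucleates fibrils in cartilage, was at 914, 1056, 1144 and 808 CP20M in vehicle, at 871, 733, 567 and 453 at R4, and at 513, 473 and 466 at R10. The R10 values were close to each other and under all vehicle values. It fell by 0.98 on the log2 scale at R10 (SE 0.29, adjusted p = 0.03). When all genes above 0 in at least 2 libraries entered the fit, its adjusted p was 0.0525 and it was not called.

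Col5a2 and Col8a1, a hexagonal network chain of vascular and corneal matrix, passed the false discovery rate at R10 but not the fold threshold, with 0.45 (adjusted p = 0.00643) and 0.41 (adjusted p = 0.0298). The R10 and vehicle groups did not overlap for 9 of the 25 members, beside 28.3% of all genes tested. Higher in all R10 libraries were Col5a2, Col4a5, Col12a1 and Col8a1, and lower in all were Col6a1, Col3a1, Col11a1, Col1a2 and Col10a1, the collagen of hypertrophic cartilage. The R10 group lacks line M11, which was the highest in vehicle for 14 of the 25 members, so that the fit without the line sets 3 lines against 4. The number of calls at R10 fell to 0 without line M3, to 1 without M3(2) and to 0 without M1(2), and was 4 without M11.

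When R10 was compared with vehicle within lines (line as a block), 13.77% of the genes and 14 members were called, 6 higher and 8 lower. Besides Col12a1 (1.31, adjusted p = 4.05e-08), the higher ones were Col14a1 (1.87), Col4a6 (0.72), Col27a1 (0.71), Col5a3 (0.69) and Col4a5 (0.67). Col4a6 was at 33 to 153 CP20M in vehicle and passed the filter only through line M3(2) at R4 (242) and R10 (338), so it was tested only because it was high there. Besides Col3a1 (−1.28) and Col11a1 (−1.15), the lower ones were Col28a1 (−1.03), Col6a1 (−1.02), Col6a2 (−1.01), Col10a1 (−0.93), Col6a3 (−0.84) and Col1a2 (−0.70). Col28a1 passed the filter only through line M11 (417 CP20M in vehicle, 203 at R4 and 421 at A1), which has no R10 library. Col14a1, a FACIT collagen of mature fibrils, was at 125, 75, 524 and 1165 CP20M in vehicle, at 462, 213, 1115 and 3142 at R4 and at 668, 397 and 1233 at R10. The lines differed more than the treatments, and within each line the values at R4 and, where measured, R10 were above vehicle.

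At R4 1.02% of the genes were called and none of the 25 members, by limma or edgeR, with 3 at an unadjusted p under 0.05. Their log2 fold changes were −0.68 for Col1a2 (adjusted p = 0.173), 0.31 for Col5a2 (0.125) and −0.60 for Col11a1 (0.327). Within lines (line as a block) 7.22% of the genes and 8 members were called, 3 higher and 5 lower. The higher ones were Col23a1, a transmembrane collagen (1.62, adjusted p = 4e-04), Col14a1 (1.38, 5.21e-05) and Col12a1 (0.71, 3.3e-05). The lower ones were Col6a2 (−0.90, 0.0462), Col6a1 (−0.76, 0.000303), Col1a2 (−0.68, 0.000286), Col3a1 (−0.61, 0.0101) and Col11a1 (−0.60, 0.0175). At R4 6.41% of all genes tested had no overlap with vehicle, and 1 of the 25 members, Col5a2, at 27398 to 33814 CP20M in vehicle and 36964 to 43771 at R4.

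Between R10 and R4 0.145% of the genes were called and none of the members, by limma or edgeR, with 3 at an unadjusted p under 0.05. Within lines (line as a block) 6.02% of the genes and 5 members were called, Col12a1 higher (0.60) and Col23a1 (−1.21), Col6a3 (−1.15), Col28a1 (−0.80) and Col3a1 (−0.67) lower. The limit given above for Col28a1, tested only through line M11, holds here too. Col23a1 was at 48, 448, 101 and 120 CP20M in vehicle, at 82, 1894, 451 and 509 at R4 and at 57, 522 and 193 at R10. It was highest in M3(2) in every group, and so was the sum of the endothelial markers. Not every marker followed, since Vwf in vehicle was at 88 CP20M in M11 and 57 in M3(2). The sum in M3(2) was 7338 CP20M in vehicle, 20810 at R4, 4774 at R10, 4907 at A1 and 12807 at R4A1. In the other lines that sum was 911 to 2223 in vehicle and 1380 to 6530 at R4. The part of endothelial transcripts in the level of Col23a1 was not tested.

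The chains of type I moved apart. Col1a1 was at 75168, 66729, 67485 and 99913 CP20M in vehicle (M3, M3(2), M1(2) and M11), at 112153, 76284, 70401 and 92536 at R4 and at 87934, 80207 and 85918 at R10. Col1a2 was at 45846, 48010, 31988 and 49362 in vehicle, at 39350, 23626, 18187 and 30982 at R4 and at 29067, 28443 and 21080 at R10. Col1a1 overlapped between groups, with a log2 fold change of 0.15 ± 0.18 at R10, while every line had less Col1a2 at R4 and, but for M11 without a library, at R10 than in its own vehicle, with −0.74 at R10 (adjusted p = 0.0561).

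The type I molecule is built mostly from 2 alpha1 chains and 1 alpha2 chain. The ratio of Col1a1 to Col1a2 per kilobase of exon was 2.63 to 3.99 in vehicle, 2.63 to 3.89 at A1, 5.4 to 7.33 at R4, 5.05 to 7.76 at R4A1 and 5.34 to 7.72 at R10. The ranges with and without regorafenib did not overlap. With the longest transcript as the length the ratio was 1.25 to 1.9 in vehicle and 2.57 to 3.49 at R4. This ratio was chosen after the values were seen and was not tested. The ratio of Col4a1 to Col4a2 lay between 1.42 and 1.58 in all fibroblast libraries.

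Type IV chains, the other abundant group in fibroblasts, showed no call for alpha1 and alpha2. Col4a1 was at 73377, 60101, 54982 and 55518 CP20M in vehicle, at 83895, 59227, 51812 and 53825 at R4 and at 75964, 63674 and 61774 at R10. Col4a2 was at 42112, 36455, 33577 and 33189 in vehicle, at 47895, 36990, 30241 and 31024 at R4 and at 44215, 36837 and 37200 at R10. The groups overlapped for both genes, and their log2 fold changes at R10 were 0.14 and 0.12. Col4a3 and Col4a4 stayed at or under 52 and 80 CP20M in all fibroblast libraries and were not tested.

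Type VI collagen forms beaded filaments around cells from alpha1 and alpha2 chains and a large alpha3 chain. Col6a1 was at 1339, 1207, 2514 and 4759 CP20M in vehicle, at 1030, 673, 1374 and 2399 at R4 and at 794 and 637 in M3 and M3(2) at R10, where M1(2) differed from its vehicle by a log2 change of −1.16. Col6a2 was at 99, 82, 445 and 1721 in vehicle, at 86, 58, 139 and 592 at R4 and at 35, 82 and 166 at R10. Col6a3 was at 4970, 4268, 4774 and 14400 in vehicle, at 9865, 3782, 6661 and 14118 at R4 and at 3026, 1368 and 5136 at R10. Each line had less Col6a1 at R4 than in its own vehicle, as had the 3 lines with an R10 library at R10. For Col6a2 this held but for M3(2) at R10, where the value was that of its vehicle, while Col6a3 at R4 was higher than vehicle in M3 and M1(2) and lower in M3(2) and M11. The ratio of Col6a3 to Col6a1 per kilobase was 0.695 to 1.36 in vehicle, 1.77 to 3.51 at R4 and 0.786 to 1.68 at R10. It was 0.501 to 1.82 at A1 and 1.47 to 2.69 at R4A1, so that the groups with and without regorafenib overlapped.

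**Figure D4:**
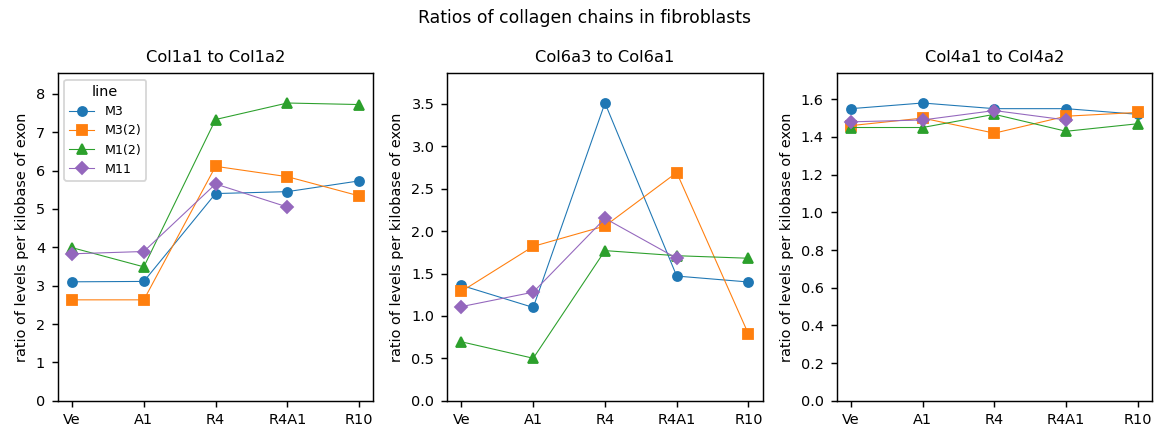
Ratio of the levels per kilobase of exon of Col1a1 to Col1a2, Col6a3 to Col6a1 and Col4a1 to Col4a2 in fibroblasts, with 1 point per library and lines joining the libraries of a fibroblast line over the treatments. The ratio of Col1a1 to Col1a2 is at most 3.99 without regorafenib and at least 5.05 with it, and that of Col4a1 to Col4a2 stays between 1.42 and 1.58.

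Autogramin-2 alone called 0% of the genes (0 of 11032, with 120 at an unadjusted p under 0.05) and none of the 25 members by limma or edgeR, with none at an unadjusted p under 0.05 and none in the blocked fit. The member with the smallest p was Col5a2, at −0.18 ± 0.09. Between R4A1 and R4 0.00906% of the genes were called and no member by limma or edgeR, with 2 at an unadjusted p under 0.05, Col11a1 (−0.77 ± 0.26) and Col5a2 (−0.22 ± 0.09), both with an adjusted p of 0.87. Col11a1 was at 409, 542, 344 and 228 CP20M at R4A1, under R4 in every line. The blocked comparison called 1.43% of the genes and 2 members, both lower, Col11a1 (adjusted p = 0.0253) and Col23a1 (−1.01, adjusted p = 0.0473). Col5a2 was at 35441, 34884, 35429 and 30574 CP20M at R4A1, all under the R4 libraries, and was the only 1 of the 25 members without overlap there, beside 2.17% of all genes tested.

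Fibroblast lines differed in which collagens they expressed. Between the highest and the lowest vehicle library the ratio was 21 for Col6a2, 15.5 for Col14a1, 9.4 for Col18a1 and 9.33 for Col23a1, and it was over 5 for 9 of the 25 members. It was under 2 for 9 others, among them Col4a1 (1.33), Col4a2 (1.27), Col5a2 (1.23) and Col8a1 (1.19). For 14 members the line that was highest in vehicle was also the highest in the other 3 groups with 4 lines. Line M11 was the highest in vehicle for 14 members, with Col18a1 at 28550 CP20M against 3037 in M3(2). M11 also held the most enteric glia transcripts in vehicle, 14937 CP20M over the 4 markers against 775 to 4712 in the other lines, and the most macrophage transcripts, 5561 against 1179 to 2478. It held the least smooth muscle transcripts, 7570 against 14857 to 23293. Their part in the result was not tested.

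**Figure D5:**
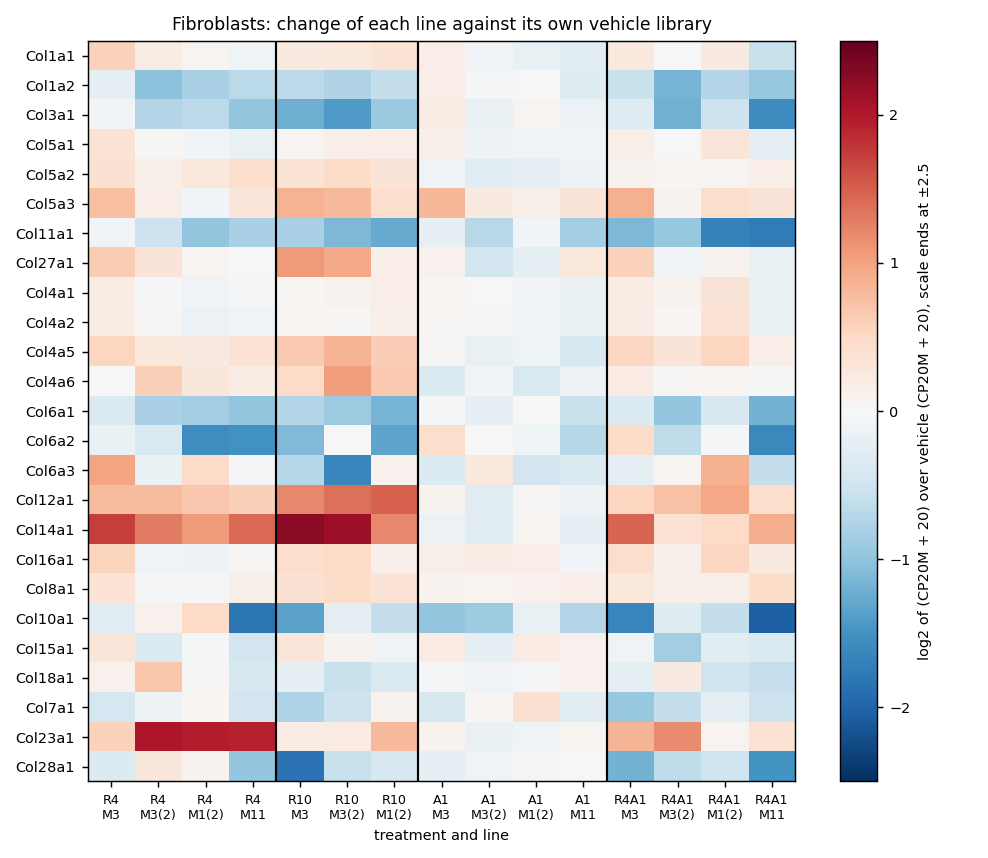
Log2 change of each of the 25 tested collagen genes in each fibroblast line against that line's own vehicle, from log2(CP20M + 20), for R4, R10, A1 and R4A1. Col12a1 and Col14a1 are above 0 in all regorafenib libraries and Col3a1, Col6a1, Col11a1 and Col1a2 below 0, and M11 has no R10 library.

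Collagen biosynthesis genes were set beside the 1.02% of all genes called at R4 and the 7.33% called at R10. At R10 1 of 17 modifying enzymes and chaperones tested rose, the prolyl 3-hydroxylase P3h2 (1.58, and 1.14 between R10 and R4), and none of 3 export genes was called. Adamts2, the proteinase that removes the N-propeptide of types I, II and III, rose at both doses (1.58 at R4 and 2.19 at R10), whereas its relative Adamts14 fell (−1.37 and −1.67), which makes 2 of the 6 propeptide genes tested. Of 7 cross-linking genes Loxl3 fell at R10 (−0.94). Of 6 receptor genes tested, the collagen-binding integrin chain Itga1 rose (1.25 at R4 and 1.53 at R10) and Itga2 fell at R10 (−1.36). None of 6 turnover genes was called in the fit without the line. In the blocked fit, which called 7.22% of all genes at R4 and 13.77% at R10, Fap and Mmp13 fell at both doses. That fit added Tll1 (higher) and Pcolce2 (lower) at both doses. It also added Tgm2 (higher) and Itga2 (lower) at R4, and Loxl1 and Ddr1 (higher) and Loxl4 (lower) at R10.

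Markers of stromal cell types moved in the same libraries. The fibroblast list summed to 18712 to 26360 CP20M in vehicle and 20675 to 23529 at R10. The 18712 is line M11, which has no R10 library, and in each of the other lines the sum was lower at R10 than in vehicle. In the fit without the line 1 of the 10 genes of the list fell at both doses. It was Pdgfra (−2.51 at R4 and −3.03 at R10), the receptor that marks most colon fibroblasts. The blocked fit called 7.22% of all genes at R4 and 13.77% at R10. Pdgfra, Fap, Twist2, Prrx1 and Twist1 fell there at both doses. Thy1 rose at both doses in that fit, and Dcn and Lum rose at R4. The smooth muscle list summed to 7570 (line M11) to 23293 CP20M in vehicle and 30434 to 38725 at R10. In the fit without the line 1 of 3 genes tested rose, Myh11 (1.86 at R4 and 1.87 at R10). In the blocked fit all 3, Cnn1, Myh11 and Actg2, rose at both doses. The macrophage list summed to 1179 to 5561 in vehicle and 609 to 651 at R10, where Lyz2 fell (−2.60). The 5561 is also line M11. Lyz2 in vehicle was at 4214 CP20M in M11 and at 674 to 1791 in the other lines, and at 217 to 268 at R10. The 4 endothelial markers tested rose at R4 in the blocked fit, with sums of 911 to 7338 in vehicle and 1380 to 20810 at R4. The part of these shifts in the changes of collagen genes was not tested.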

How the data were processed

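The authors trimmed the reads with Trimmomatic 0.36, aligned them with STAR 2.5.3a to GRCm38 and counted them per gene with HTSeq 0.9.1 (versions from the submitters' processing notes). The deposited signal values, CP20M, are counts the authors scaled to 20000000 per library and rounded up. The file legends call them per kilobase, but genes of all lengths share 1 step within a library, so they are not divided by length. Whether strand was used is not given in the sources used here, and the labels and the methods name different library kits. Between 98.0% and 100% of a library's values were whole multiples of its step after rounding up. Whole reads recovered this way gave the depths, and edgeR 4.0.16 was run on them as an alternative. Where a step is close to 1 CP20M nearly any whole number is a multiple, so the share says little for the deepest libraries.

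Groups were taken from the labels. The titles of 3 tumoroid 5-FU libraries say colonoid, and these were placed by library name and genotype label, while the library name also gave the line of 1 fibroblast library (M3). All 44 gene IDs matched GENCODE M21, which holds 52489 of the 52636 genes. Values were tested as log2(CP20M + 20) with limma 3.58.1 (eBayes with trend, R 4.3.3), 1 coefficient per group, in fits of 18 organoid, 24 organoid (5-FU) and 19 fibroblast libraries, for genes with at least 200 CP20M in at least 2 libraries. Benjamini-Hochberg adjustment ran over all genes tested, and the fits were tested on simulated data with 200 genes changed. The study's methods and legends describe each organoid and fibroblast line as coming from an individual mouse. In the fit without the line, p-values measure the spread between the lines of a group. That fit takes the libraries of 1 line in different groups as independent. In the blocked fit, p-values measure the spread that is left within lines.

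Lines recur across treatments. After group means were taken off, same-line libraries correlated at 0.50 on average in organoids (lowest 0.01, 36 pairs) against −0.25 between lines, and at 0.72 in fibroblasts (lowest 0.34) against −0.23. The pairing comes from the line names. The named genes were every collagen gene called, with values in all libraries for the 3 called with the largest change in each comparison, for the main chains of types I, IV and VI and for the most abundant member. The members and the lists were chosen with earlier results of these data known.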

Additional observations from a re-analysis of the deposited data

Results flagged for a closer look

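In fibroblasts 2 values of collagen genes stood far from the rest of their group by Dixon's test at the 95% level, for which 10 members in 4 groups of 4 libraries were examined (40 sets, of which chance flags about 1 in 20). Col6a3 in vehicle was at 14400 CP20M in line M11 and at 4268 to 4970 in the other lines, a gap of 0.931 of the range. Col6a2 at R4 was at 592 CP20M in line M11 and at 58 to 139 in the other lines, a gap of 0.848 of the range. Both are genes of type VI and both lie in M11, the line without an R10 library.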

How the results depend on the processing

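No called member changed direction under any alternative run. At a false discovery rate of 0.001 the calls for regorafenib were 4 in organoids, 1 in colonoids and 0 in tumoroids. The tumoroid count of 2 was 0 with all genes above 0 in at least 2 libraries, 1 with TMM scaling, 5 with edgeR, 4 with all 24 libraries in the fit and 4 without the library with the fewest reads. Leaving out 1 line gave 0 to 4 in tumoroids, 5 to 7 in colonoids, 7 to 8 in organoids, 0 to 2 with 5-FU (2 without colonoid line M41, and 2 without its shallow library) and 0 to 4 at R10. Part of this is the filter, since Col7a1 was not tested without M41 or M40, Col5a2 without M1 and Col5a2 and Col11a2 without M14. Other causes were not tested.

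With the line as a block the counts were 4 in tumoroids, 2 with 5-FU, 8 at R4, 14 at R10, 5 between R10 and R4 and 2 between R4A1 and R4, and the block moved no other count of calls by over 1.5 times. TMM scaling moved the median of all genes in colonoids from −0.14 to −0.04 and the share of higher among called genes from 40.8% to 53.6% there and from 41.2% to 30.2% between R8 and R4. Depth limits the shallow colonoid library, and low members such as Col5a2 and Col4a3 rest on few reads in vehicle. Gene lengths differ between models, most for Col1a2, and counts of overlapping genes could not be separated by strand.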
